A study of Mus musculus with 4 samples.

Results

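Endothelial and mural cell genes are genes that mark the cells of blood vessels. All 32 genes of the list were found by symbol in the deposited table of 17778 genes, and all 32 reached the minimum of 0.5 RPKM (read number divided by gene length and by library size) in at least 1 group, as did 14257 genes of the table. The list holds 25 genes of endothelial cells and 7 genes of mural cells (4 of pericytes and 3 of smooth muscle cells). The rule names them by symbol, as known markers of these cells, and sets no measured value for membership. The members and their role groups were, however, chosen with earlier results of these data known.

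The study sequenced mRNA of both medial prefrontal cortices (mPFC) of C57BL/6 mice, an inbred strain, which were male and juvenile when the experiment began. The CUMS group (2 libraries) had been through chronic unpredictable mild stress, a schedule of changing mild stressors such as isolation, restraint and disturbed light, and had been selected for depression-like behavior in every test used. CUMS mice without these behaviors were left out by the study, so that the group stands for susceptible mice only. The control group (2 libraries) lived without the stressors. RNA was isolated from each mouse a day after the behavior was tested, and whether a library holds 1 mouse or several was not stated.

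The lining of a brain vessel is a single layer of endothelial cells. Tight junctions seal the gaps between them, and transporters in their membranes decide what passes from blood to brain. These properties together are called the blood-brain barrier. Pericytes sit on capillaries and smooth muscle cells surround arterioles, and both take part in the control of vessel wall and blood flow.

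The table gives 1 mean per gene and group, made by the authors over the 2 libraries. No value of a single library was used here, so the differences below come without an error over mice and without a test. Each log2 ratio (CUMS over control) is given with a 95% counting interval. This interval uses an exact Clopper-Pearson calculation on fragment numbers that were estimated from the low values of the table, which gave about 7385524 fragments for a control library and 7440476 for a CUMS library. It covers counting error only. A gene was called when its fold exceeded 1.5, which is the fold threshold of the study without its probability criterion. In bulk tissue, fewer cells of a type and less RNA per cell cannot be told apart.

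The comparison asked whether vessel genes differ between depression-like and control mice. One member, Cldn5, was past the fold threshold, and it was lower in CUMS. Cldn5 is not in the paper's list of changed mRNAs, for which the probability criterion also had to be met. The other members lay between -0.41 (Acta2) and 0.41 (Ly6a) on the log2 scale. Lower means were seen in 16 members and higher means in 16, beside 53.2% lower over all genes. The median log2 ratio was 0.0080 over the 25 endothelial genes and -0.088 over the 7 mural genes, against -0.015 over all 14257 genes. Of all genes, 4.42% were past the fold on the lower side, compared with 1 of 32 members, and 2.78% on the higher side, compared with 0 of 32 members. The median size of the log2 ratio, taken without its sign, was 0.13 in the members and 0.13 in all genes.

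**Figure D1:**
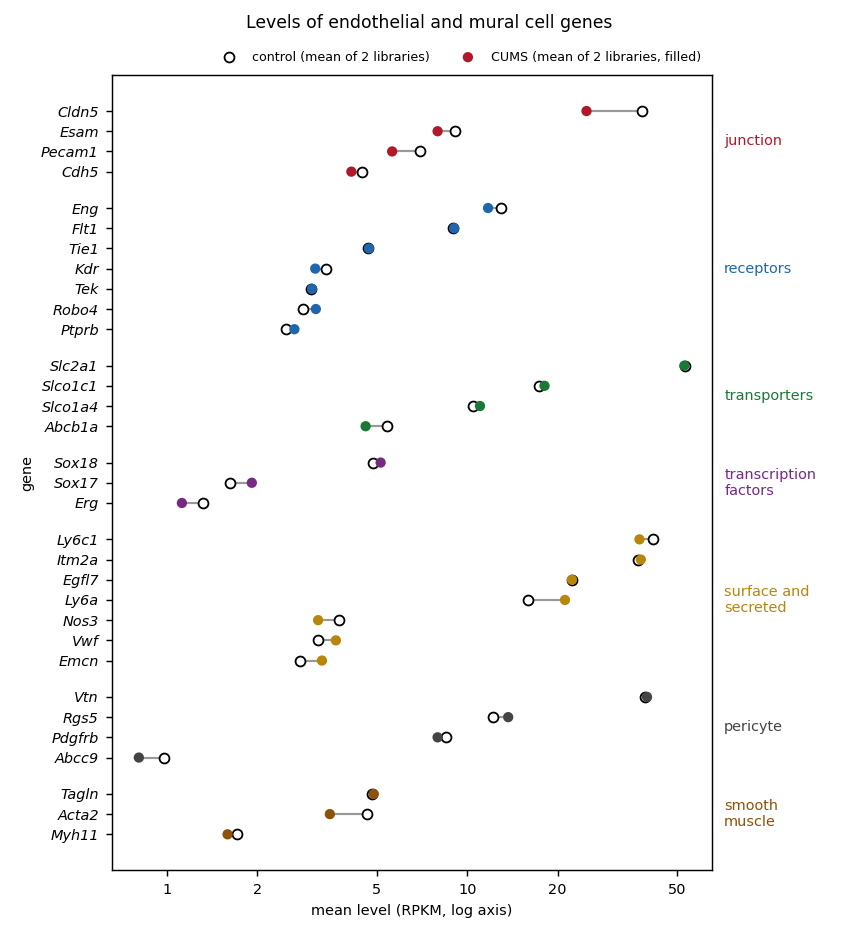
Mean level of each gene in RPKM (log axis) in control (open circles) and CUMS (filled circles), each point the authors' mean of 2 libraries, with genes grouped by role and ordered by control level. Cldn5 has the widest gap, from 38.1 to 24.96 RPKM, while Slc2a1, Vtn and Itm2a lie almost on top of each other in the 2 groups.

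Levels were spread over a wide range, from 0.98 RPKM in control for Abcc9 to 53.1 RPKM for Slc2a1, with a median of 5.13 RPKM. After Slc2a1, the highest control levels belonged to Ly6c1 (41.6 RPKM), Vtn (39.2 RPKM), Cldn5 (38.1 RPKM) and Itm2a (37.2 RPKM). In CUMS the order was Slc2a1 (52.9 RPKM), Vtn (39.7 RPKM), Itm2a (37.9 RPKM), Ly6c1 (37.5 RPKM) and Cldn5 (24.96 RPKM). Cldn5 thus went from the fourth to the fifth place. It made up 11.99% of the summed RPKM of the endothelial genes in control and 8.22% in CUMS.

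Claudin-5, the product of Cldn5 (gene 12741, chromosome 16, 18776847 to 18778262, GRCm38), is the main claudin of the tight junctions between brain endothelial cells. The gene consists of 1 exon in GENCODE M21, with no exon of another gene over it and no window of 100 bases in common with a transcript of another gene. Since it was the member past the threshold, the 250 bases before its RefSeq start (GRCm38.p6) are shown with those of Slco1c1, a transporter gene of the same cells whose means were close to each other. They lie at chr16:18776597-18776846 and chr6:141524104-141524353, both on the plus strand, and are written 5′ to 3′. Capitals mark a match to AGGAAGT on either strand, a sequence bound by factors of the ETS family, to which Erg belongs.
Cldn5: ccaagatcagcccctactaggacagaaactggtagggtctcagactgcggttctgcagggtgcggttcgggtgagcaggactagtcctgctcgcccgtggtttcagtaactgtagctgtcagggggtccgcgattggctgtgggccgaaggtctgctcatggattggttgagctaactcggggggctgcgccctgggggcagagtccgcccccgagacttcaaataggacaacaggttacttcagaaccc
Slco1c1: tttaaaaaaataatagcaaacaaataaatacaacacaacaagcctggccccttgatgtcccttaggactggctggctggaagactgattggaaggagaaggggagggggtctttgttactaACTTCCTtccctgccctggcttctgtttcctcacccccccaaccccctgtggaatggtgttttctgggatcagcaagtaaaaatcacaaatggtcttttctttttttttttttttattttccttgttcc

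The Cldn5 window held 12 CpG pairs at a GC content of 59.6%, and the Slco1c1 window held 0 CpG pairs at 42.8%. The medians over all promoter windows in the RefSeq table were 6 CpG pairs and 52.4%. Promoter windows were found for 20 of the 32 members. With the 50 bases after the start included, AGGAAGT was found on either strand in 5 of these 20 (Egfl7, Eng, Flt1, Ly6c1 and Slco1c1), and in 10.7% of all 27025 genes with a window. Of these 5 genes, none was past the fold threshold. With 1 of the 32 members past it, this count cannot relate the match to the ratio. A match is a description of letters and not of a bound site.

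Junction and adhesion genes hold endothelial cells to each other. All 4 had a lower mean in CUMS, as did 53.2% of all genes. The 4 genes summed to 58.7 RPKM in control against 42.7 RPKM in CUMS. Cldn5 fell from 38.1 RPKM in control (800 fragments over both libraries) to 24.96 RPKM in CUMS (527 fragments), a 1.53-fold lower level, and its log2 ratio was -0.61 (counting interval -0.77 to -0.45). This value lies just past the threshold of 0.58 on the log2 scale, which the interval spans. Among the 9397 genes that reached 5 RPKM in a group, Cldn5 had the 104th lowest ratio. The intervals of 20 of the other 24 endothelial genes lay wholly above that of Cldn5, and the exceptions were Pecam1, Esam, Nos3 and Erg. The same held for 5 of the 7 mural genes. Cldn5 had the lowest ratio of the members, so these counts were favored by that choice and are no test.

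Pecam1 (gene 18613, chromosome 11, 106654213 to 106715281), which codes for the adhesion molecule CD31, was 6.98 RPKM in control and 5.62 in CUMS. Its log2 ratio was -0.31 (-0.55 to -0.08), so that the interval lay under 0 although the fold of 1.24 was under the threshold. Esam, an adhesion molecule found at tight junctions, was 9.12 and 7.96 RPKM with a log2 ratio of -0.20 (-0.47 to 0.07). Cdh5, which codes for VE-cadherin of the adherens junctions, was 4.46 and 4.11 RPKM with a log2 ratio of -0.12 (-0.37 to 0.14). The intervals of Esam and Cdh5 both held 0. Without Cldn5, the other 3 genes summed to 20.6 RPKM in control and 17.7 in CUMS, and their pooled fragments gave a log2 ratio of -0.22 (-0.36 to -0.07).

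**Figure D2:**
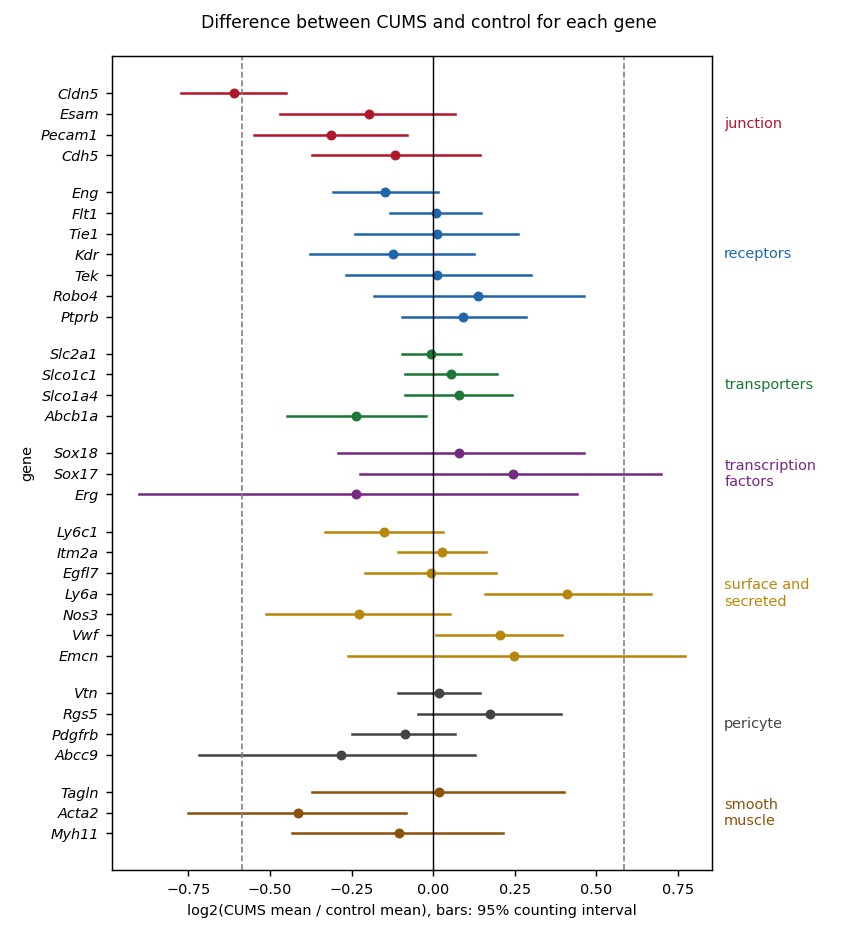
Log2 ratio of CUMS over control for each gene (points) with its 95% counting interval (bars), grouped by role, with dashed lines at a fold of 1.5 in either direction. The interval leaves out 0 on the lower side for Cldn5, Pecam1, Abcb1a and Acta2 and on the higher side for Ly6a and Vwf.

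Counting intervals left out 0 on the lower side in 4 members (Cldn5, Pecam1, Abcb1a and Acta2) and on the higher side in 2 members (Ly6a and Vwf). The shares over all genes were 16.8% and 12.5%. The intervals of 25 members lay wholly inside the fold limits of 1.5 in both directions. The share over all genes is not given for this count, which also depends on the number of fragments of each gene. The count therefore cannot show whether the members differed less than other genes.

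The receptor group holds proteins by which endothelial cells read growth and guidance signals. None of its 7 genes was past the fold threshold and none had an interval away from 0. Flt1 and Kdr code for the receptors of vascular endothelial growth factor (VEGF). Flt1 was 8.99 RPKM in control and 9.04 in CUMS, a log2 ratio of 0.01 (-0.13 to 0.15). Kdr was 3.39 and 3.12 RPKM, a log2 ratio of -0.12 (-0.38 to 0.13). The angiopoietin receptor Tek and its relative Tie1 were close to equal in the groups, with Tek at 3.02 and 3.04 RPKM and Tie1 at 4.67 and 4.71 RPKM. Ptprb, which codes for the phosphatase that acts on Tek, was 2.49 and 2.66 RPKM. Eng, a co-receptor of the TGF-beta family, was 12.98 RPKM in control and 11.7 in CUMS, a log2 ratio of -0.15 (-0.31 to 0.02). Robo4, a receptor of the roundabout family, was 2.84 and 3.13 RPKM. The summed level of the group was 38.4 RPKM in control and 37.4 in CUMS.

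The transporter genes of the barrier included the member with the most precise value. Slc2a1, which codes for the glucose transporter GLUT1, rested on 2017 fragments in control and 2025 in CUMS. Its levels were 53.1 and 52.9 RPKM and its log2 ratio was -0.01 (-0.09 to 0.08), the narrowest interval of the members. Slco1a4 and Slco1c1 code for carriers of organic anions, the second also of thyroid hormone. Slco1a4 was 10.4 and 11.03 RPKM (log2 ratio 0.08, -0.09 to 0.24), and Slco1c1 was 17.4 and 18.1 RPKM (0.06, -0.09 to 0.20). Abcb1a (gene 18671, chromosome 5, 8567091 to 8748575) codes for P-glycoprotein, a pump that returns drugs to the blood. It was 5.40 RPKM in control and 4.58 in CUMS, with a log2 ratio of -0.24 (-0.45 to -0.02). Of its 4898 windows of 100 bases, 378 recur in Abcb1b or Abcb4, and Gm42686 on the opposite strand covers 10.1% of its exon bases, so that its value is less certain than the others. Slc2a1 and Slco1c1 are also made by astrocytes.

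Transcription factors were the group with the fewest reads. Sox17 (75 and 89 fragments) and Sox18 (116 and 124 fragments) act in endothelial identity, as does the ETS factor Erg (43 and 37 fragments). Their levels were 1.61 and 1.92 RPKM for Sox17, 4.87 and 5.14 RPKM for Sox18, and 1.32 and 1.12 RPKM for Erg. The log2 ratios were 0.25 (-0.22 to 0.70), 0.08 (-0.29 to 0.46) and -0.24 (-0.90 to 0.44), in the same order. All 3 intervals held 0, and those of Sox17 and Erg also held a fold of 1.5. Gm37587 on the opposite strand covers 16.8% of the exon bases of Sox17.

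The surface and secreted proteins held the member with the highest ratio. Ly6a (gene 110454, chromosome 15, 74994877 to 74998031), which codes for the surface protein Sca-1, was 15.9 RPKM in control (226 fragments) and 21.2 RPKM in CUMS (303 fragments). Its log2 ratio was 0.41 (0.16 to 0.67), a 1.33-fold higher level that did not reach the threshold. Among genes of at least 5 RPKM it had the 129th highest ratio. Ly6c1 lies 45987 bases from Ly6a in the same gene cluster and codes for a related surface protein. It was 41.6 RPKM in control and 37.5 in CUMS, a log2 ratio of -0.15 (-0.33 to 0.03), so that the intervals of the 2 neighbours did not overlap. Ly6c1 shares 114 of its 745 windows of 100 bases with Ly6c2, and a part of its reads may have been lost or exchanged. Ly6a shared none.

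Vwf codes for von Willebrand factor, a clotting protein stored in endothelial cells. It was 3.17 RPKM in control and 3.65 in CUMS, a log2 ratio of 0.20 (0.01 to 0.40). Emcn, a surface mucin of capillaries and veins, was 2.76 and 3.28 RPKM with a log2 ratio of 0.25, but rested on 60 and 72 fragments, and its interval reached from -0.26 to 0.77. Nos3, the nitric oxide synthase of endothelial cells, was 3.73 and 3.19 RPKM with a log2 ratio of -0.23 (-0.51 to 0.05). Exons of Atg9b and Gm15587 on the opposite strand cover 32.3% of the exon bases of Nos3, and strand use was not stated in the study. Egfl7, a secreted factor whose gene also holds the microRNA Mir126a, was 22.4 and 22.3 RPKM. Itm2a, a membrane protein, was 37.2 and 37.9 RPKM, a log2 ratio of 0.03 (-0.11 to 0.16). Among these, Egfl7 and Itm2a showed almost no difference, and Vwf and Nos3 lay on opposite sides of 0.

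Without Cldn5 the other 24 endothelial genes summed to 279.8 RPKM in control and 278.8 in CUMS. Their pooled fragments (10510 and 10527) gave a log2 ratio of -0.01 (-0.05 to 0.03). With Cldn5 the sums were 318 and 304 RPKM, and the ratio over fragments was -0.04 (-0.08 to -0.01). Cldn5 was left out, here and in the junction group, after its value had been seen, and leaving out the member with the lowest ratio can only raise the ratio of the sums. Pooled fragments weigh long and highly expressed genes more than others.

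Pericyte genes were at similar levels in the groups. Vtn, which codes for vitronectin and is made in brain by pericytes, was 39.2 RPKM in control (1022 fragments) and 39.7 RPKM in CUMS (1042 fragments), a log2 ratio of 0.02 (-0.11 to 0.14). Rgs5, a regulator of G protein signaling, was 12.1 and 13.7 RPKM (0.17, -0.05 to 0.39). Pdgfrb, the receptor by which pericytes are recruited to vessels, was 8.46 and 7.96 RPKM (-0.09, -0.25 to 0.07). Abcc9, a subunit of potassium channels gated by ATP, was the member with the lowest level, at 0.98 and 0.81 RPKM (-0.28, -0.72 to 0.13). The 4 genes summed to 60.8 RPKM in control and 62.2 in CUMS.

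Smooth muscle genes code for the contractile apparatus. Acta2 (gene 11475, chromosome 19, 34240336 to 34255585), the smooth muscle actin, was 4.64 RPKM in control (176 fragments) and 3.48 RPKM in CUMS (133 fragments). Its log2 ratio of -0.41 (-0.75 to -0.08) was the lowest of the mural genes, a 1.33-fold lower level. Tagln, an actin-binding protein of the same cells, was 4.82 and 4.88 RPKM (0.02, -0.37 to 0.40), and Myh11, the smooth muscle myosin, was 1.71 and 1.59 RPKM (-0.10, -0.43 to 0.21). Acta2 and Myh11 thus had lower means and Tagln did not, but the intervals of the 3 genes overlap. Whether the 3 genes differed alike was not tested. Exons of Pcsk7 and Gm48529 on the opposite strand cover 67.9% of the exon bases of Tagln, so that reads of Pcsk7 may be part of its value. Pooled over the 3 genes, the log2 ratio was -0.19 (-0.38 to 0.01).

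**Figure D3:**
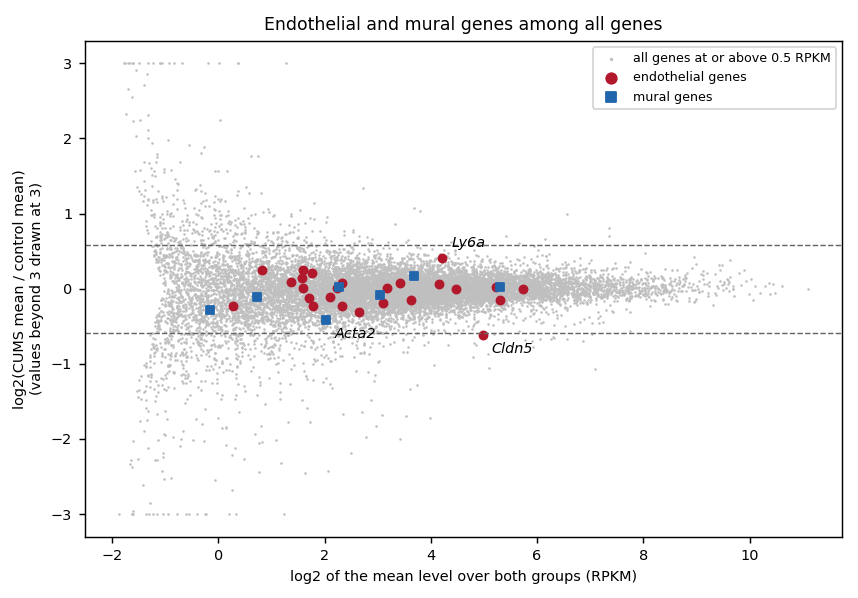
Log2 ratio of CUMS over control against the log2 of the mean level in RPKM for 14257 genes (grey), with endothelial genes as red circles and mural genes as blue squares, and dashed lines at a fold of 1.5. All members but Cldn5 lie between the dashed lines, and 27 of 32 have a log2 ratio within 0.25 of 0.

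Log2 ratios within 0.25 of 0 were found in 27 of 32 members (84.4%) and in 73.3% of all genes. The members lay on 15 chromosomes, with at most 4 on one (Flt1, Kdr, Abcb1a and Nos3 on chromosome 5, and Slco1a4, Slco1c1, Vwf and Abcc9 on chromosome 6). On chromosome 16 the log2 ratios of Cldn5, Erg and Myh11 were -0.61, -0.24 and -0.10, and only the interval of Cldn5 left out 0. No window of 100 bases was shared with another gene in 28 of 32 members. In the annotation of the deposited table, 6 members carried the process term angiogenesis (18.8%), as did 0.708% of all genes.

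Further genes of vessel pathways and cells were described from 15 lists. Of 202 genes that are not members, 183 reached 0.5 RPKM. Their median log2 ratio was 0.03, with 85 lower, 97 higher and 1 equal. A fold over 1.5 was seen on the lower side in 10 (5.46%) and on the higher side in 6 (3.28%), beside 4.42% and 2.78% over all genes. Genes under 5 RPKM that are named in the lists below were singled out after their values were seen. Of the 82 that reached 5 RPKM, 3 were past the fold on the lower side, Mfsd2a, Sparc and Pglyrp1, and 1 on the higher side, Gkn3. Sparc is in the paper's list of changed mRNAs, and Mfsd2a, Pglyrp1 and Gkn3 are not. Over all 9397 genes of this level the shares were 1.28% and 0.319%. Mfsd2a, a lipid transporter of barrier endothelium, fell to 11.7 RPKM in CUMS against 19.2 RPKM in control, with a log2 ratio of -0.72 (-0.90 to -0.53). Sparc, a matrix protein that vessel cells and glia secrete, fell to 89.3 RPKM in CUMS against 145 RPKM in control, with a log2 ratio of -0.70 (-0.76 to -0.63). Pglyrp1, a peptidoglycan recognition protein found in brain endothelium, fell to 6.42 RPKM in CUMS against 9.66 RPKM in control, with a log2 ratio of -0.59 (-1.06 to -0.12) on 97 and 65 fragments. Gkn3, a marker of arterial endothelium, rose to 7.29 RPKM in CUMS against 4.34 RPKM in control, with a log2 ratio of 0.75 (0.23 to 1.27) on 51 and 86 fragments.

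The tight junction list included Cldn5 and Esam. Of its 13 genes at the minimum, 11 were lower in CUMS, beside 53.2% of all genes, with a median log2 ratio of -0.19. Cldn5 was the one past the fold threshold. Over the 11 genes that are not members, 9 were lower and the median was -0.15. The intervals of 4 of the 11 lay under 0, beside 16.8% of all genes. Jam3 (19.1 and 14.9 RPKM, log2 ratio -0.36), Jam2 (-0.23) and Cgnl1 (-0.27) were among them. Jam2, Cgnl1 and Ocln were singled out after their values were seen. Cldn12, another claudin, was 14.8 and 14.5 RPKM, a log2 ratio of -0.04 (-0.18 to 0.10). The scaffold gene Tjp1 (ZO-1) was 10.5 and 10.3 RPKM, a log2 ratio of -0.04 (-0.16 to 0.09). Occludin, from Ocln, was 2.69 and 2.30 RPKM (-0.23, -0.61 to 0.15). Many of these genes are also made by other cells of the brain.

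Other barrier transporters and receptors (15 genes that are not members) had a median log2 ratio of 0.11, with 10 higher and 5 lower, and Mfsd2a was the one past the threshold. Those with the most reads, Slc3a2 (60.7 and 62.0 RPKM) and Slc7a5 (28.5 and 29.9 RPKM), form the carrier of large neutral amino acids and had log2 ratios of 0.03 and 0.07. In the Wnt pathway, which builds and keeps the barrier, 0 of 17 genes were past the threshold and the median was 0.03. Ctnnb1, which codes for beta-catenin, was 171 and 175 RPKM (0.03). The ligands Wnt7a and Wnt7b lay on opposite sides of 0, at -0.33 (-0.56 to -0.11) and 0.33 (0.21 to 0.45), with Wnt7a named after its value was seen.

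VEGF ligands and receptors had a median of -0.01 with 0 of 10 genes past the threshold. Vegfb was 53.3 and 52.4 RPKM (-0.03). Vegfa was 22.2 RPKM in control and 19.2 in CUMS (-0.21, -0.34 to -0.08), and its co-receptor Nrp2 was 10.5 and 8.79 RPKM (-0.25). In the angiopoietin pathway 5 of 5 genes at the minimum were higher, by 0.01 to 0.21 on the log2 scale, and each interval held 0. TGF-beta and BMP pathway genes were higher in 12 of 16, with a median of 0.06 and 0 past the threshold, and the target gene Id2 was 59.4 and 68.0 RPKM (0.20). In the Notch list 9 of 12 genes were lower, 2 were higher and 1 was equal. The ligand Dll4 (1.68 and 0.90 RPKM, 86 and 46 fragments, log2 ratio -0.89) and the target Heyl (2.46 and 1.34 RPKM, 164 and 91 fragments, -0.87) were past the threshold at low levels. The target with the most reads, Hey1, was 27.0 and 30.5 RPKM (0.18, 0.05 to 0.31). In the PDGF list, 1 of 6 genes was past the threshold, Pdgfd (28 and 16 fragments), with an interval that held 0.

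Among 20 endothelial transcription factors, the median was 0.07, with 2 past the threshold on the lower side and 1 on the higher side. Foxq1 (2.24 and 1.26 RPKM, log2 ratio -0.83) was on the lower side and Tal1 (24 and 42 fragments, 0.81) on the higher side. Mef2c, which neurons also make, was 55.0 and 69.8 RPKM (0.34). Further endothelial markers (26 genes at the minimum) were higher in 18 and lower in 8, and their median was 0.09. Past the threshold were Pglyrp1 and Cyyr1 on the lower side and Clec14a and Sdpr on the higher side. Those with the most reads, S1pr1, Pltp and Cd34, had log2 ratios of 0.17, 0.17 and 0.11. Arterial and venous genes were higher in 10 of 12, and their median was 0.14. Of the genes that inflamed endothelium switches on, 6 reached the minimum, with 5 higher, 1 lower and a median of 0.13. The lower one was the transcription factor Fosl2, which had the most reads. Fosl2 was 11.5 and 8.54 RPKM, a log2 ratio of -0.43 (-0.57 to -0.29), and which cells made it was not tested. The adhesion molecules Icam1 (1.14 and 1.21 RPKM) and Vcam1 (7.64 and 8.55 RPKM) had intervals that held 0. Of the 2 genes past the threshold on the higher side, Lrg1 rested on 10 and 31 fragments, with a log2 ratio of 1.57 (0.56 to 2.81).

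Further pericyte markers had a median of -0.12 over 17 genes with 0 past the threshold. Rgs4, which neurons also make, was 112 and 146 RPKM (0.38). Among the others, Atp13a5 was higher (2.04 and 2.97 RPKM, log2 ratio 0.54) and Mcam was lower (8.14 and 5.54 RPKM, -0.56), with intervals on opposite sides of 0. Further smooth muscle markers were lower in 11 of 14 with a median of -0.19, and 1 was past the threshold, Map3k7cl (13 and 7 fragments). Myl9, the myosin light chain, was 13.5 and 13.1 RPKM (-0.05, -0.33 to 0.23). Basement membrane genes were lower in 10 of 15, and their median was -0.08. Sparc was the one past the threshold, and the collagen IV chains Col4a1 (10.2 and 9.72 RPKM) and Col4a2 (15.9 and 14.9 RPKM) had log2 ratios of -0.08 and -0.10.

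**Figure D4:**
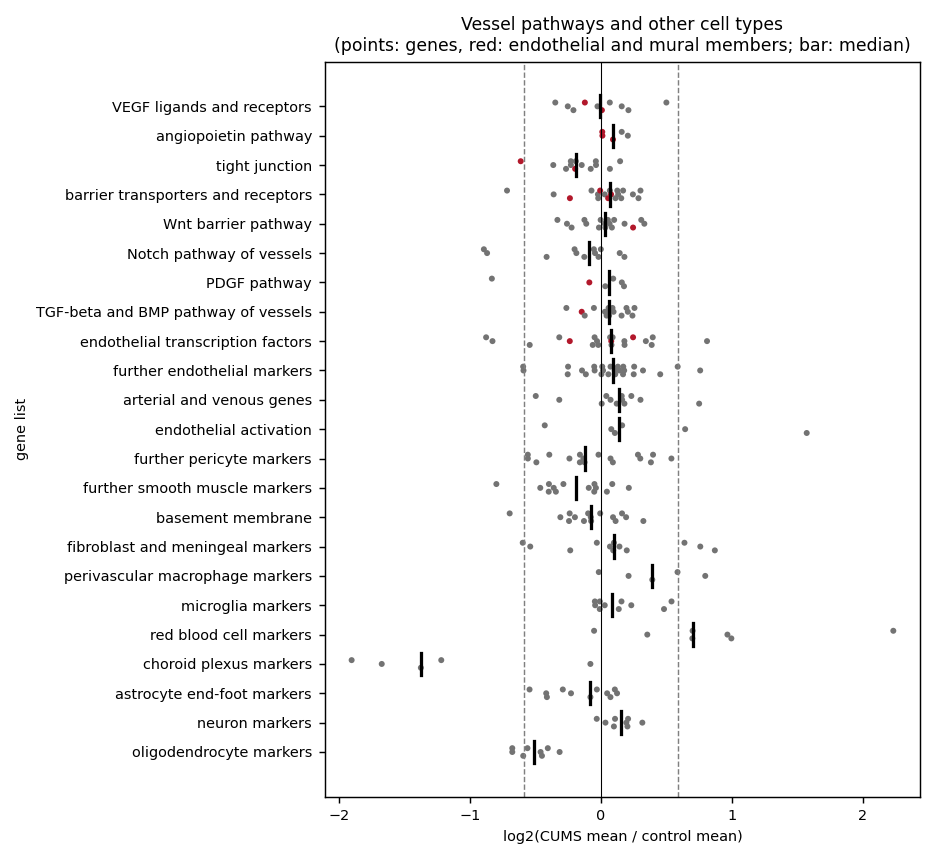
Log2 ratio of CUMS over control for genes at or above 0.5 RPKM in 15 vessel lists and 8 lists of other cell types (points, with endothelial and mural members in red) and the median of each list (black bar), with dashed lines at a fold of 1.5. The medians of the vessel lists lie between -0.19 (tight junction and further smooth muscle) and 0.14 (arterial and venous), and those of oligodendrocyte (-0.51), choroid plexus (-1.37), red blood cell (0.70), perivascular macrophage (0.39) and neuron (0.15) markers lie outside this range.

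Lists of markers for 8 other kinds of cells were described in the same way. Oligodendrocyte markers were lower in 8 of 8 genes, with a summed level of 1944 RPKM in control and 1323 in CUMS and a median log2 ratio of -0.51. Mbp, Mobp and Cldn11 were past the threshold in this list. Choroid plexus markers were lower in 5 of 5 genes at the minimum, 4 of them past the threshold (6.69 and 3.57 RPKM summed over 9 genes). The list was not lower throughout, since 4 further genes lay below the minimum and differed in direction. Its defining gene Ttr was near 0 in both groups (1 and 0 fragments), and F5 fell from 0.055 to 0.035 RPKM. Kcnj13 rose from 0.01 RPKM in control to 0.415 in CUMS, with a lower interval bound of 0.76. A small rise was seen in Folr1, from 0.24 to 0.29 RPKM. Astrocyte end-foot markers had a median of -0.08 (722 and 679 RPKM summed). Neuron markers were higher in 7 of 8 (2566 and 2912 RPKM summed, median 0.15), and microglia markers in 6 of 10 (288 and 303 RPKM, median 0.08). Perivascular macrophage markers were higher in 4 of 5 genes at the minimum, with a median of 0.39 at low levels (6.49 and 7.91 RPKM summed over 7 genes), and all 5 intervals held 0. Fibroblast and meningeal markers had a median of 0.10 with 8 of 12 higher (547 and 625 RPKM summed, mostly from Ptgds). Red blood cell markers were higher in 6 of 7, and their median was 0.70. Of the 5 genes past the threshold, Hba-a1, Hba-a2 and Hbb-b1 were at 5 RPKM or more, and globin genes share reads with their near copies. The part of these differences in the values of Cldn5, Acta2 or Ly6a was not tested.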

How the data were processed

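mRNA of 2 control and 2 CUMS libraries was analysed, with groups taken from the sample titles. The authors trimmed reads with SolexaQA, aligned them to mm10 with TopHat 1.0.12 and Bowtie 0.11.3, counted uniquely aligned reads per gene, and deposited RPKM averaged over each group, with 0.01 in place of 0. Gene annotation and use of strand were not given in the sources used here. The table also holds gene length, which was used, and the authors' own log2 ratio, direction and probability, which were not.

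Log2 ratios were computed from both means without a pseudocount, for genes that reached 0.5 RPKM in 1 group or both. Fragment numbers came from the step that 1 fragment adds to the product of mean and length (genes under 1000 bases, products under 350). Products lay within 0.15 of a whole step in 86.5% of 406 control and 86.2% of 392 CUMS values, which assumes equal depth within a group. The estimate is below the read numbers of the study, a gap that was not resolved. The step routine and the intervals were tested on simulated data with equal depth in every library and counting error only. That test cannot show how they behave with unequal depth or PCR duplicates, and it does not address the gap in depth. Intervals cover counting error only. PCR duplicates are counted as independent, which would make the intervals too narrow. An estimated depth that is too low would make them too wide.

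Coordinates and promoters were from RefSeq GRCm38.p6 (32 members matched by gene ID), exons and transcripts from GENCODE M21 (GRCm38). A shared window is an exact match of 100 bases of the longest transcript to another gene. Members, roles and lists were chosen with earlier results of these data known. Every member was named. Of other lists, genes past the fold at 5 RPKM or more were named, or those with the largest means, and other names were picked after their values were seen. Python 3.11.15, numpy 2.4.6, pandas 2.3.3, scipy 1.17.1 and matplotlib 3.10.9 were used. A few list genes are not reported here.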

Additional observations from a re-analysis of the deposited data

How the results depend on the processing

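No paired analysis was possible because each gene has 1 mean per group, and for the same reason the fits without each replicate and with a replicate block were not run. Of 49 values recomputed under alternatives, 41 stayed within their counting interval or within 1.5 times the count, and 8 moved. Values near 0 changed sign within that range. Some alternatives could not move a value. Every member reached the minimum, so dropping it changed nothing, and leaving out Cldn5 cannot change a mural value. The interval set for the endothelial median, -0.26 to 0.19, was also much wider than its range under the alternatives. The count of 41 is therefore no measure of stability. The endothelial median ran from -0.0056 to 0.023 and the mural median from -0.096 to 0.017, each with its sign changed at a minimum of 5 RPKM. The summed mural log2 ratio (0.0023) was -0.0039 with equal totals and -0.015 without Vtn. The summed endothelial log2 ratio (-0.066) was -0.11 without Slc2a1, Slco1c1, Itm2a, Tek and Kdr, which other brain cells also express, and -0.0053 without Cldn5, an alternative added after seeing the data. The number of members past the fold (1) was 3 at a lower fold threshold, 0 at a fold of 2 and 0 without Cldn5. Members lower in CUMS (16) were 9 with a minimum of 5 RPKM, where fewer genes are counted. Members with an interval away from 0 (6) were 11 if the depth was doubled and 2 if it was halved. Depth therefore limits what can be said of the members with few fragments, and the spread between mice is unknown.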

Other observations

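Genes that carry the process term angiogenesis in the deposited annotation and are not members (95 genes of at least 0.5 RPKM) had a median log2 ratio of -0.04, with 52 lower and 43 higher in CUMS. Past the fold of 1.5 were 6 on the lower side (6.32%) and 3 on the higher side (3.16%), beside 4.42% and 2.78% over all genes. At 5 RPKM or more, the one gene past the fold was Cyr61, a secreted matrix protein and an early response gene, which fell from 10.6 RPKM (319 fragments) to 4.56 RPKM (138 fragments), a log2 ratio of -1.22 (-1.52 to -0.93). Cyr61 is in the paper's list of changed mRNAs. It was found here by its value and no test over mice was possible.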
